A study of Homo sapiens with 4 samples.

Results

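The FOS, JUN and EGR immediate early factors were followed across SNU638 gastric cancer cells that carried a control vector or a YTHDF1 vector. The genes FOS, FOSB, FOSL1, FOSL2, JUN, JUNB, JUND, EGR1, EGR2 and EGR3 were taken from the count table by their gene symbols, and are 10 of its 46427 genes. All 10 passed the filter on low counts and were among the 17781 genes tested. SNU638 is an established human gastric cancer cell line. Control cells received a control vector and YTHDF1-overexpressed cells received a vector for YTHDF1, a protein that binds RNA carrying N6-methyladenosine (m6A), and each group had 2 libraries labelled as biological replicates. Cells of both groups were first kept for 24 h without serum and were then given IFN-γ at 10 ng/ml, for 8 h by the labels and for a longer time by the text of the study. All 4 libraries thus came from cells given IFN-γ, and no library of cells without it was analysed here. Transfection of plasmids is described for the study, and a group is 1 cell line throughout. The labels do not say whether the replicates of a group came from separate cultures, so the p-values measure only the spread between these libraries, which may be technical. The comparison of the vectors asks how YTHDF1 overexpression alters the transcripts of cells under IFN-γ.

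Immediate early genes are transcribed within minutes of a growth factor or stress signal, without the need for new protein synthesis. Receptors such as EGFR activate the kinases of the ERK pathway, which phosphorylate activators already bound at these promoters, among them the ternary complex factors that sit beside SRF on CArG boxes and CREB1 on CRE sites. FOS proteins pair with JUN proteins to form AP-1, whereas EGR proteins are zinc finger factors that bind GC-rich sites and are held in check by the cofactors NAB1 and NAB2. Many immediate early mRNAs are short-lived.

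Total counts ran from 57398137 to 60864942 per library, so that 1 count equalled 0.0166 to 0.0176 CPM (counts scaled to the library size after TMM). YTHDF1 had 82.2 and 80.3 CPM in Control replicates 1 and 2, and 16494 and 2627.9 CPM in YTHDF1 replicates 1 and 2. Both YTHDF1 libraries were above both Control libraries, and YTHDF1 replicate 1 was 6.28-fold above YTHDF1 replicate 2. The libraries stood apart by their replicate number more than by their vector. Across genes, which do not replicate each other, the log2 CPM of Control and YTHDF1 had a Pearson's r of 0.985 within replicate 1 and 0.983 within replicate 2, and r was 0.886 and 0.888 between the replicates of Control and of YTHDF1. What the replicate numbers stand for is not stated in the sources used here. Of 6 epithelial markers all 6 were tested, and their summed level was 3917.1 to 4113.6 CPM in the libraries numbered 1 and 6406.2 to 6719.7 CPM in those numbered 2. The sum is mostly keratins, as KRT8, KRT18 and KRT19 were higher in the libraries numbered 2, whereas EPCAM (275 against 242 CPM), CDH1 (52.1 against 34.9 CPM) and CLDN4 (55.8 against 0.964 CPM) had lower means in number 2 than in number 1. Of 6 fibroblast markers 2 were tested, with a summed level of 6.41 to 11.6 CPM and COL1A2 at 0 counts in all libraries, and of 6 leukocyte markers 4 were tested, with a summed level of 6.23 to 6.63 CPM. The part of these differences in the results below was not tested. In bulk RNA, fewer cells that express a gene and less RNA per cell cannot be told apart.

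The promoters are shown first, since they hold the sites on which the signals named above are known to act. RefSeq windows on GRCh38.p14, from 250 bases before to 50 bases after a start site, were found for 8 of the 10 genes, with 3 starts for EGR2, and none was held for FOSL1 and EGR3. The 250 bases before the start are printed for EGR1 and EGR2 (the third of its starts), which held CArG boxes, for FOS and FOSB, which differed most between the replicate numbers among the FOS genes, and for JUN, which did not pass the test there. Capitals mark CArG boxes, TGACG, which is the core of a CRE, and TGACNTCA, a CRE-like site, on either strand, so that CGTCA is TGACG on the other strand. Each sequence is written 5′ to 3′ along the strand of its gene.
EGR1, chr5:138465229-138465478, plus strand: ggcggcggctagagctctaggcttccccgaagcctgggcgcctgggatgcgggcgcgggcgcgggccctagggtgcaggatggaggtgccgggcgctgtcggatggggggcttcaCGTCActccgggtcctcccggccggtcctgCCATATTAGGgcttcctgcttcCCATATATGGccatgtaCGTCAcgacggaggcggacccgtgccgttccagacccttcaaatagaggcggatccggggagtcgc
EGR2, chr10:62816367-62816616, minus strand: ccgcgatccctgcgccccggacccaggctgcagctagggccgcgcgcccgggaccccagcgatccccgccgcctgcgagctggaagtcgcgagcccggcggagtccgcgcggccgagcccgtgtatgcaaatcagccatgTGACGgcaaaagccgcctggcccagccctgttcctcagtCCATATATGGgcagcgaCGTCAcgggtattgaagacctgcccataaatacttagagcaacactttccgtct
FOS, chr14:75278578-75278827, plus strand: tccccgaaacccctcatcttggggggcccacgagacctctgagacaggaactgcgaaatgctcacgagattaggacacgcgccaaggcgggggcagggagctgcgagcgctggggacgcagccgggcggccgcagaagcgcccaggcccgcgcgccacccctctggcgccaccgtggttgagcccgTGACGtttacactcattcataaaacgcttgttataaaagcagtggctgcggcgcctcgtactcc
FOSB, chr19:45467746-45467995, plus strand: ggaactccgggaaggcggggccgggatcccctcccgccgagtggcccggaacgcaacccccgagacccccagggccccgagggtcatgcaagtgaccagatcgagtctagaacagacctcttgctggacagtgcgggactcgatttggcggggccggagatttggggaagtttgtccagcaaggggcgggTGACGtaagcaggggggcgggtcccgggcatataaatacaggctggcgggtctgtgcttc
JUN, chr1:58784048-58784297, minus strand: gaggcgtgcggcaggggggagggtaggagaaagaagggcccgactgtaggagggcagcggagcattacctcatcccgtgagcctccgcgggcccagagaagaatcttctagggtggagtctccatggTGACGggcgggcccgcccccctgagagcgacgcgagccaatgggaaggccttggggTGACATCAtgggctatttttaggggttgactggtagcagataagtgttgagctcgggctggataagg

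In EGR1, which encodes the most abundant EGR factor here, 2 CArG boxes began 105 and 83 bases before the start, and TGACG matches on the other strand began 135 and 66 bases before it. In EGR2, a CArG box began 71 bases before the third start, between TGACG matches 110 and 54 bases before it. CArG boxes were found in EGR1 and EGR2 alone among the 8 genes with a window, against 1.29% of 35116 RefSeq windows of the same length. For FOS, the classical serum response element is known to lie further upstream than this window reaches. TGACG was found in at least 1 window of each of the 8 genes, and 24.6% of all windows held it. It was added to the search after the sequences had been seen. For every motif here a gene was counted if any of its windows matched, whereas the percentages are shares of single windows. The units thus differ for EGR2, which had 3 windows. TGACG had 0 matches at its starts 1 and 2 and 2 matches at its start 3. TATAAA was found in FOS, FOSB and JUNB, against 11.5% of all windows. JUN held TGACATCA 67 bases before the start, and JUND held TGACGTCA 200 bases before it, which also contains TGACG on both strands. TGACNTCA was found in 7.72% of all windows. FOSL2 was the single gene with an AP-1 site, TGANTCA (7.71% of all windows), which lay just after its start, and EGR1 the single gene with TTCNNNGAA, a GAS site, 228 bases before the start (7.66% of all windows). Of the other letters searched on both strands, the ETS site CCGGAA was in FOSB (17.2% of all windows), the EGR site GCGNGGGCG was in EGR1 and EGR2 (9.43%), and the SP1 site GGGCGG was in 6 of the 8 genes (45.0%). These matches describe the letters of the windows and not binding.

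**Figure D1:**
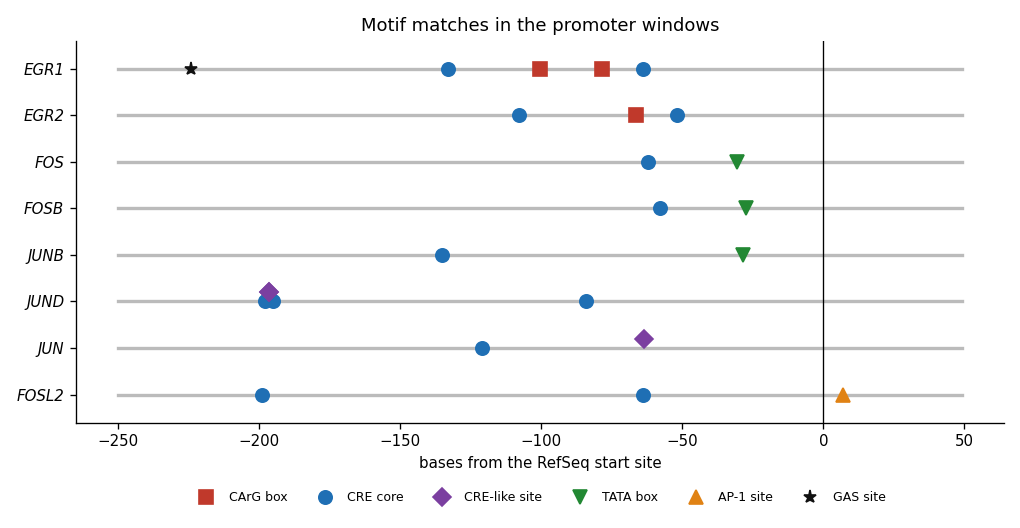
Motif matches in the RefSeq promoter windows of 8 genes, by distance in bases from the start site (x axis, start at 0), with 1 row per gene (for EGR2 the third start). Symbols mark CArG boxes, CRE cores, CRE-like sites, TATA boxes, AP-1 sites and GAS sites. CRE-like sites are drawn a little higher so that none is hidden. CArG boxes appear in EGR1 and EGR2 and a CRE core in all 8 rows. Starts 1 and 2 of EGR2, which are not drawn, held 0 CArG boxes and 0 CRE cores.

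Levels of different genes were compared as CPM per kb of the longest protein-coding transcript in GENCODE v29. FOSL1, a FOS protein that is often sustained in epithelial cancer cells, had the highest mean of the 10 genes, with 161 CPM per kb (127 to 194 over the 4 libraries). EGR1 followed with 52.1 CPM per kb (18.3 to 112). The ranges of FOSL1 and EGR1 did not overlap. The 3 JUN genes came next and overlapped each other, with means of 32.9 CPM per kb for JUND, 31.7 for JUNB and 28.9 for JUN. FOSL2 had 9.41 CPM per kb, below every value of the JUN genes. FOS had 7.23 CPM per kb (1.93 to 16.5), FOSB 2.07 (0.720 to 3.60), EGR2 1.25 (0.513 to 2.21) and EGR3 0.789 (0.745 to 0.848), and each of these overlapped its neighbours in this order. The order itself changed with the replicate number. EGR1, at 18.3 and 18.8 CPM per kb in the libraries numbered 2, lay below all 3 JUN genes there, and at 59.6 and 112 CPM per kb in those numbered 1 it lay above them. FOS lay above FOSL2 in YTHDF1 replicate 1 alone, where they had 16.5 and 8.64 CPM per kb.

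Within the FOS family, FOSL1 made up 82.9% to 93.9% of the summed CPM per kb, and FOS itself made up 5.74% and 9.82% in Control and YTHDF1 replicate 1 against 0.973% and 0.991% in Control and YTHDF1 replicate 2. The JUN family was divided more evenly, with JUNB at 38.1% and 38.5% in the libraries numbered 1 and at 27.8% and 28.3% in those numbered 2. EGR1 made up 92.9% to 97.4% of the EGR family. The summed EGR level was 62.0 and 19.7 CPM per kb in the Control replicates, numbers 1 and 2, and 115 and 20.1 CPM per kb in the YTHDF1 replicates. These shares are descriptions and rest on 1 transcript length per gene.

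FOS (chr14:75278828-75282230), the prototype AP-1 subunit with a very short-lived mRNA, had 18.3 CPM in the Control library numbered 1 and 4.16 CPM in that numbered 2. In YTHDF1 replicate 1 it had 35.5 CPM and in YTHDF1 replicate 2 it had 4.42 CPM. The libraries numbered 1 were high and those numbered 2 low, and the vector groups overlapped. FOSB (chr19:45467996-45475179), a related subunit that is also induced at once, had 11.8 and 3.14 CPM in Control replicates 1 and 2 and 13.6 and 2.72 CPM in YTHDF1 replicates 1 and 2. It showed the same split by number, with overlapping vector groups. FOSL1 (chr11:65892049-65900545), which encodes FRA1, went the other way between the numbers, with 212 and 310 CPM in Control replicates 1 and 2 and 232 and 324 CPM in YTHDF1 replicates 1 and 2. FOSL2 (chr2:28392858-28417317), which encodes FRA2, varied least in the family, with 61.2 and 67.0 CPM in Control replicates 1 and 2 and 57.9 and 66.5 CPM in YTHDF1 replicates 1 and 2. FOSL2 overlaps FOSL2-AS1 by 1815 bases, and that antisense gene had 5 to 29 counts per library against 3412 to 4013 for FOSL2. The strand setting of the counting is not given in the sources used here, so reads in the shared stretch cannot be told apart.

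JUN (chr1:58780791-58784047), a strongly activating subunit of AP-1, had 97.5 and 101 CPM in Control replicates 1 and 2 and 113 and 98.3 CPM in YTHDF1 replicates 1 and 2. YTHDF1 replicate 1 was the highest of the 4 libraries, and neither the vectors nor the numbers were separated. JUNB (chr19:12791486-12793315), a weaker activator that can oppose JUN, had 69.1 and 40.3 CPM in Control replicates 1 and 2 and 79.8 and 41.5 CPM in YTHDF1 replicates 1 and 2. It was high in both libraries numbered 1. JUNB overlaps HOOK2 by 865 bases, and HOOK2 had 2072 to 2559 counts per library against 2287 to 4701 for JUNB, so its counts are uncertain in the shared stretch. JUND (chr19:18279694-18281622), which is expressed more constitutively than its relatives, had 63.8 and 54.3 CPM in Control replicates 1 and 2 and 71.3 and 56.1 CPM in YTHDF1 replicates 1 and 2. It was also higher in the libraries numbered 1, by a smaller margin than JUNB.

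EGR1 (chr5:138465479-138469303), a zinc finger factor induced through SRF and its partners, had 187 CPM in the Control library numbered 1 and 57.3 CPM in that numbered 2. In YTHDF1 replicate 1 it had 351 CPM and in YTHDF1 replicate 2 it had 58.9 CPM. As for FOS, the libraries numbered 1 were high, YTHDF1 replicate 1 was the highest, and the vector groups overlapped. EGR2 (chr10:62811996-62819167), best known from myelination and lymphocytes, was low at 4.91 and 1.85 CPM in Control replicates 1 and 2 and 6.57 and 1.52 CPM in YTHDF1 replicates 1 and 2, from 92 to 387 counts. It again followed the replicate number. EGR3, a relative induced in activated lymphocytes and muscle spindles, had 3.23 and 3.39 CPM in Control replicates 1 and 2 and 3.40 and 3.68 CPM in YTHDF1 replicates 1 and 2, from 192 to 222 counts. EGR3 was the single gene of the 10 whose vector groups did not overlap, and its 4 values lay close together. Groups did not overlap in 11.5% of all tested genes, with YTHDF1 higher in 5.67%. EGR3 overlaps LOC107986924 by 45 bases, and that gene had 0 counts in all 4 libraries.

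**Figure D2:**
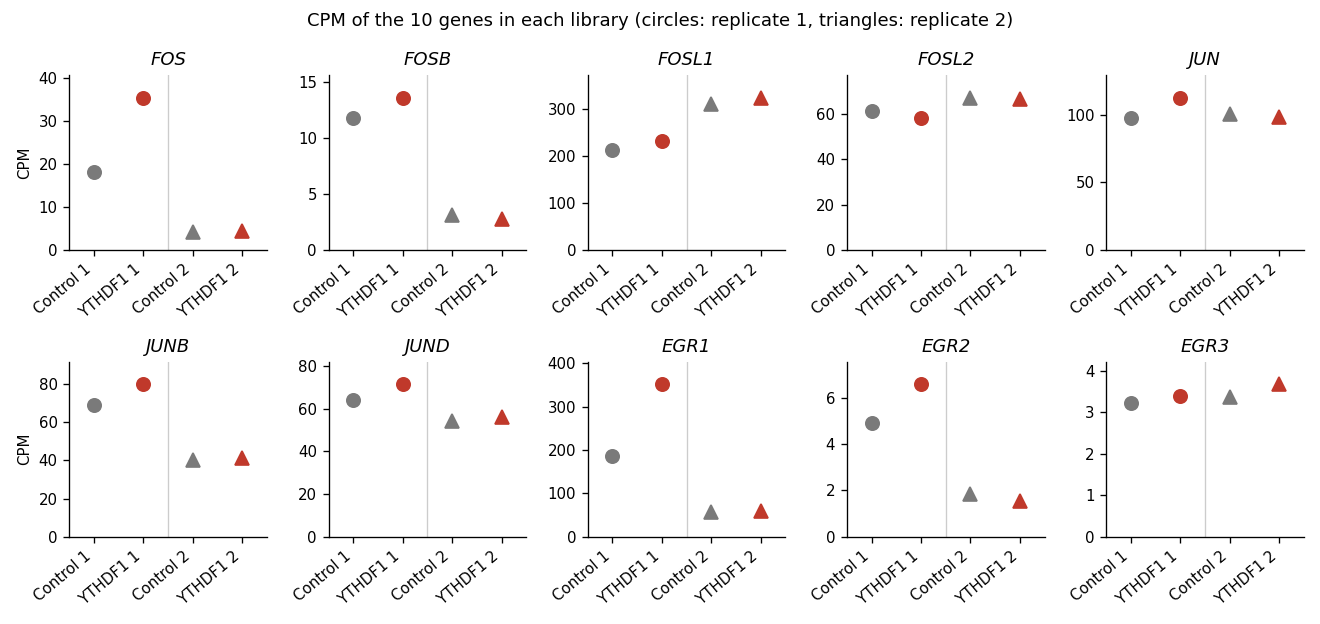
CPM of each of the 10 genes (y axis, starting at 0, 1 panel per gene with its own scale) in each of the 4 libraries (x axis), with circles for replicate 1, triangles for replicate 2, grey for Control and red for YTHDF1. FOS, FOSB, JUNB, EGR1 and EGR2 sit high in both circles and low in both triangles, and FOSL1 sits the other way.

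Over the 4 libraries, in a fit without the replicate number, none of the 10 genes differed between the vectors beyond the spread between replicates, which here holds the gap between the numbers. By edgeR's quasi-likelihood test, 0 of 10 genes reached a fold change of 0.5 on the log2 scale, in either direction, with an unadjusted p under 0.05, against 0.101% of all tested genes, and 0 did so with a Benjamini-Hochberg adjusted p under 0.05, against 0% of all tested genes. In this fit no member had an unadjusted p under 0.05 at any fold change, where 24 of all 17781 genes did. DESeq2's Wald test and limma-voom, which also left out the replicate number, called 0 of the 10 as well. The largest values were those of FOS, with a log2 fold change of 0.83 (SE 1.30, adjusted p = 1.00), and EGR1, with 0.75 (SE 1.10, adjusted p = 1.00), by edgeR's quasi-likelihood test. For both, the SE was larger than the difference, and limma-voom gave 0.49 for FOS and 0.47 for EGR1, under the threshold of 0.5. EGR2 had 0.26 (SE 0.94) and FOSB 0.13 (SE 1.09), again with wide errors. The other 6 lay between −0.04 (FOSL2, SE 0.11) and 0.15 (JUNB, SE 0.46). Differences of this size were not detectable with this spread, which does not show that they are absent. In the same fit the overexpressed YTHDF1 itself had 6.88 (SE 1.20, unadjusted p = 0.0061, edgeR's quasi-likelihood test). It did not pass at an adjusted p, so 0 calls in this fit say little about the members. The median of the 10 was 0.12, beside 0.0046 over all tested genes. With the replicate number as a further term, FOS (0.65, SE 0.16) and EGR1 (0.51, SE 0.15) were called at an unadjusted p, against 1.08% of all tested genes, and 0 of 10 at an adjusted p, against 0.045%. In that fit JUNB (0.13) and FOSL1 (0.097) also had an unadjusted p under 0.05, below the fold threshold. With 4 libraries its SE draws on the spread of other genes, and does not show how far the 2 numbers disagreed. The vector value was 0.96 in replicate 1 and 0.088 in replicate 2 for FOS, and 0.91 and 0.041 for EGR1. With a library left out, each vector no longer holds both numbers equally, so that the gap between the numbers becomes part of the vector value. Leaving out YTHDF1 replicate 1 gave −1.34 for FOS and −1.05 for EGR1 on the log2 scale, and leaving out Control replicate 1 gave 2.26 and 1.84.

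The difference between the vectors was then taken within each replicate number, as a difference of log2 CPM between 1 library and 1 library. Such values have no replicate check, and their 95% intervals cover counting error only. Within replicate 1, FOS was 1.94-fold higher with the YTHDF1 vector, a log2 difference of 0.96 (interval 0.85 to 1.06), and EGR1 was 1.88-fold higher, a log2 difference of 0.91 (interval 0.88 to 0.94). Within replicate 2, the log2 difference was 0.088 for FOS (interval −0.17 to 0.35) and 0.041 for EGR1 (interval −0.028 to 0.11). The 2 genes thus differed between the vectors in the libraries numbered 1 by more than counting error, and in those numbered 2 the intervals held 0. They were the only members at or above 0.5 within replicate 1, against 4.82% of all tested genes and 0.239% of the 11288 tested genes with a mean of at least 5 CPM. Among those 11288 genes FOS was rank 10 and EGR1 rank 11 from the top within replicate 1, and rank 1751 and rank 3447 within replicate 2. No member reached 0.5 within replicate 2, where 5.71% of all tested genes and 0.602% of the same 11288 genes did. The difference between the differences was 0.87 for FOS and 0.87 for EGR1 on the log2 scale. It could not be tested, as 4 libraries leave no spread for it.

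The remaining 8 genes were closer between the vectors. EGR2 was at 0.42 within replicate 1 (interval 0.20 to 0.64) and at −0.28 within replicate 2 (interval −0.70 to 0.14), in log2 CPM with YTHDF1 minus Control. FOSB was at 0.20 (interval 0.054 to 0.35) and −0.21 (interval −0.52 to 0.11), and JUN was at 0.21 (interval 0.16 to 0.26) and −0.040 (interval −0.092 to 0.013). These genes shared a value above 0 within replicate 1 whose interval left out 0, and a value below 0 within replicate 2 whose interval held it. JUNB was at 0.21 and 0.043, JUND at 0.16 and 0.050, and FOSL1 at 0.13 and 0.065, so these were above 0 within both. EGR3 was at 0.073 and 0.12 with intervals that held 0 both times, and FOSL2 was below 0 within both, at −0.078 and −0.012. In all, 9 of 10 genes were above 0 within replicate 1, against 52.4% of tested genes, and 6 of 10 within replicate 2, against 49% of tested genes. Of the 10, 6 were above 0 within both numbers, against 25.9% of tested genes, and 1 was below 0 within both, against 24.5%. The YTHDF1 transcript itself was 201-fold above Control within replicate 1 and 32.7-fold above it within replicate 2, and whether this gap has a part in the values of FOS and EGR1 was not tested.

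**Figure D3:**
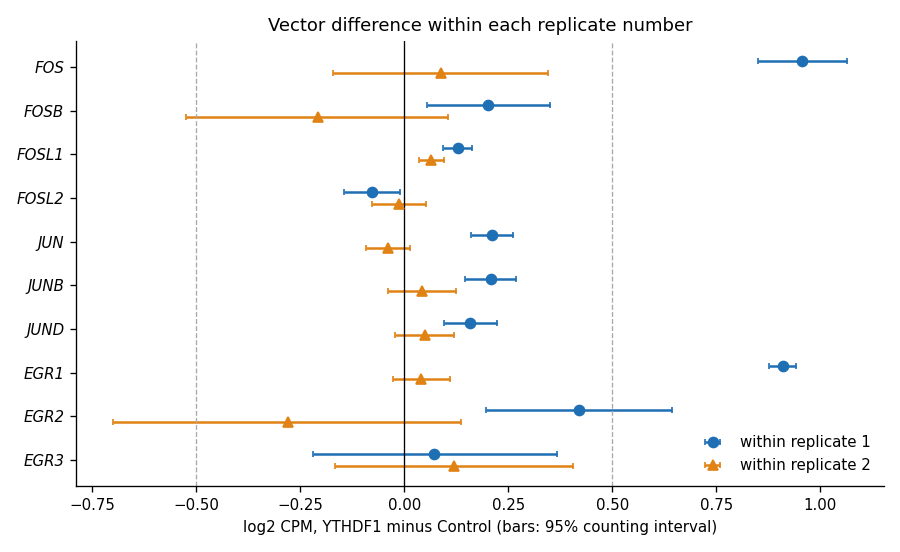
Difference of log2 CPM, YTHDF1 minus Control (x axis), for each of the 10 genes (rows), within replicate 1 (blue circles) and within replicate 2 (orange triangles), with 95% intervals for counting error and dashed lines at a size of 0.5. FOS and EGR1 lie at 0.96 and 0.91 within replicate 1 and close to 0 within replicate 2, and all other points lie inside the dashed lines.

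Most of these genes had larger log2 differences between the replicate numbers than between the vectors, the exceptions being JUN and EGR3. In the libraries numbered 2, 5 of the 10 were lower and 1 was higher, at a log2 difference of 0.5 or more in either direction and an adjusted p under 0.05 (edgeR, quasi-likelihood). Among all tested genes 26.2% passed this rule, 16.2% lower and 9.96% higher. The 5 lower genes were FOS, FOSB, JUNB, EGR1 and EGR2, and the higher one was FOSL1. Each number holds a Control and a YTHDF1 library, so the SE and p of this fit take in the difference between the vectors. The 2 libraries of a number were alike (r of 0.985 and 0.983) and may not be independent replicates of it. The p-values here therefore do not measure how far other replicate numbers would differ. With the vector as a further term the SE was 0.16 for FOS and 0.15 for EGR1, and 6 of the 10 were again called at an adjusted p. FOS fell by 2.65 on the log2 scale (SE 0.28, adjusted p = 7.12e-05), or 6.27-fold between the mean CPM of the numbers. EGR1 fell by 2.21 (SE 0.24, adjusted p = 7.86e-05), and FOSB differed by −2.12 (SE 0.13, adjusted p = 2.41e-06) and EGR2 by −1.77 (SE 0.20, adjusted p = 9.78e-05) in the same comparison. These 4 had the largest differences of the 10 genes. JUNB differed by −0.86 (SE 0.070, adjusted p = 1.30e-05) and FOSL1 by 0.51 (SE 0.048, adjusted p = 3.41e-05). JUND, at −0.29 (SE 0.060, adjusted p = 0.00330), and FOSL2, at 0.16 (SE 0.047, adjusted p = 0.0176), passed the test but not the fold threshold. For JUN, at −0.077 (adjusted p = 0.350), and EGR3, at 0.092 (adjusted p = 0.638), the test was not passed, and these were also the only genes of the 10 whose numbers overlapped. The numbers did not overlap in 77.1% of all tested genes, so a clean split was common here. FOSL1 was at 0.45 without Control replicate 1 and at 0.48 without YTHDF1 replicate 2, under the threshold both times.

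Both vectors showed this difference. From replicate 1 to replicate 2 within Control, log2 CPM differed by −2.13 for FOS, −1.91 for FOSB, −1.71 for EGR1, −1.40 for EGR2 and −0.78 for JUNB. Within YTHDF1 the values were −3.00 for FOS, −2.32 for FOSB, −2.58 for EGR1, −2.10 for EGR2 and −0.94 for JUNB. Each of the 5 was thus further apart in the YTHDF1 libraries than in the Control libraries. By arithmetic this restates that their vector values were higher within replicate 1 than within replicate 2, and it is no further result. JUN had opposite signs, with 0.052 within Control and −0.20 within YTHDF1.

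**Figure D4:**
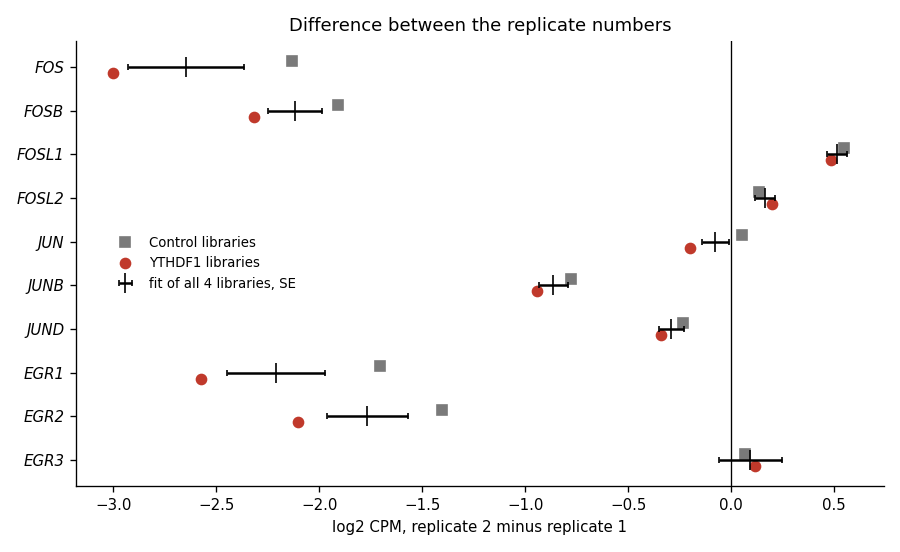
Difference of log2 CPM, replicate 2 minus replicate 1 (x axis), for each of the 10 genes (rows), with grey squares for Control, red circles for YTHDF1 and black bars for the fit of all 4 libraries with its SE. FOS, FOSB, EGR1 and EGR2 lie between −3.00 and −1.40, JUN and EGR3 lie at 0 within 0.20, and FOSL1 lies above 0.

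The pathway around these factors was described by 8 hand-written lists, ordered here from the signal to the targets. In the comparison of the vectors, 0 genes of any list passed the call rule, adjusted or unadjusted, by edgeR, DESeq2 or limma-voom. By edgeR 0.101% of all tested genes passed it at an unadjusted p and 0% at an adjusted p. EGFR ligands, which start the ERK cascade, had 6 of 7 genes tested, and 4 of them were lower and 0 higher in the libraries numbered 2. At an adjusted p, 16.2% of all tested genes were lower and 9.96% higher there. EREG, an ERBB ligand, had 520 and 230 CPM in Control replicates 1 and 2 and 679 and 244 CPM in YTHDF1 replicates 1 and 2. The AREG values were 143 and 81.6 CPM in Control and 165 and 76.5 CPM in YTHDF1, and TGFA had 37.6 and 14.1 CPM in Control and 38.6 and 12.4 CPM in YTHDF1. All 3 split by number in the direction of FOS and EGR1, whereas BTC, at −0.42 on the log2 scale, did not reach the threshold. The list's median log2 difference between the numbers was −1.05, beside −0.012 over all tested genes. EREG was at 0.38 within replicate 1 and 0.084 within replicate 2 between the vectors.

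None of the kinases that link receptors to these promoters was called. Of 14 upstream kinases 0 passed the rule between the numbers by edgeR, also at an unadjusted p, with a median log2 difference of −0.13. The rule was passed by 26.2% of all tested genes at an adjusted p and by 27.9% at an unadjusted p. MAP2K2, a kinase of the ERK cascade, had 100 to 118 CPM in the 4 libraries, and MAP2K7, a JUN kinase activator, had 56.8 to 72.3 CPM. Of 12 promoter-bound activators 2 were higher and 1 lower in the libraries numbered 2, against 9.96% and 16.2% of all tested genes. STAT3 was at 0.29 on the log2 scale, and the ternary complex factors ELK3 and ELK4 were at 0.13 and −0.21. Among those that passed were MRTFA at 0.56 and MEF2D at −0.82, named here outside the rule of highest mean CPM. SRF, which binds CArG boxes and is also outside that rule, had 61.3 to 62.8 CPM in all 4 libraries. Whether the mRNA levels of these activators have a part in the values of EGR1 was not tested.

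Other immediate early genes held both directions. Of 24, 7 were lower and 3 higher in the libraries numbered 2, against 16.2% and 9.96% of all tested genes. Their median log2 difference was −0.22, beside −0.012 over all tested genes. KLF6, the most abundant, was higher by 0.79, whereas MYC at −0.16, ATF3 at 0.18 and KLF10 at −0.41 did not reach the threshold. IER3 fell by 2.48 on the log2 scale (SE 0.060) and KLF4, a stem cell and epithelial factor, fell by 2.27 (SE 0.13). ARC, named after its values were seen, had 498 and 561 counts in the libraries numbered 1 and 10 and 17 counts in those numbered 2. None of the 24 reached 0.5 in size between the vectors within replicate 1. The values ran from −0.48 for NR4A3 to 0.42 for BTG2, an antiproliferative gene, and within replicate 2 ARC was at 0.65, from 10 and 17 counts, with NR4A3 and BTG2 named after their values were seen. Their median within replicate 1 was 0.16, with 15 of 24 above 0, and within replicate 2 it was 0.021, also with 15 of 24 above 0. Of all tested genes, 52.4% were above 0 within replicate 1 and 49% within replicate 2.

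ERK feedback genes, which dampen the pathway, were split as well. Of 14, 5 were lower and 2 higher in the libraries numbered 2, against 16.2% and 9.96% of all tested genes. DUSP4, a nuclear phosphatase of ERK, was higher by 0.73 on the log2 scale, PHLDA1 was at 0.34, and DUSP6, a cytoplasmic phosphatase of ERK, was at 0.023 with 132 to 146 CPM. DUSP5, also a nuclear phosphatase of ERK and named after its values were seen, had 2094 and 2442 counts in the libraries numbered 1 and 5 and 3 counts in those numbered 2. Within replicate 1, 13 of the 14 were above 0 between the vectors with a median of 0.14, and 0 reached 0.5, while 52.4% of all tested genes were above 0, with a median of 0.0089. Within replicate 2, 8 of the 14 were above 0 with a median of 0.047, against 49% of all tested genes.

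Among AP-1 dimer partners 10 of 11 genes were tested, as BATF had 0 counts in all libraries. In the libraries numbered 2, 2 of them were lower and 1 was higher, against 16.2% and 9.96% of all tested genes. BATF2, an interferon-responsive partner, was higher by 0.78, whereas ATF4 at −0.21, ATF3 at 0.18 and MAFG at −0.11 did not reach the threshold. The EGR cofactors NAB1 and NAB2 were at 0.0019 and −0.48, and 0 of 2 passed the call rule, against 26.2% of all tested genes. AP-1 target genes had 17 of 20 tested, with 5 lower and 2 higher in the libraries numbered 2, beside 16.2% and 9.96% of all tested genes. ITGA2, an integrin subunit, was higher by 1.24, with 298 and 728 CPM in Control replicates 1 and 2. CCND1 at 0.29, CD44 at −0.11 and PLAU at 0.47 did not reach the threshold. The median of the AP-1 targets was −0.11 between the numbers and 0.025 between the vectors, beside −0.012 and 0.0046 over all tested genes.

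**Figure D5:**
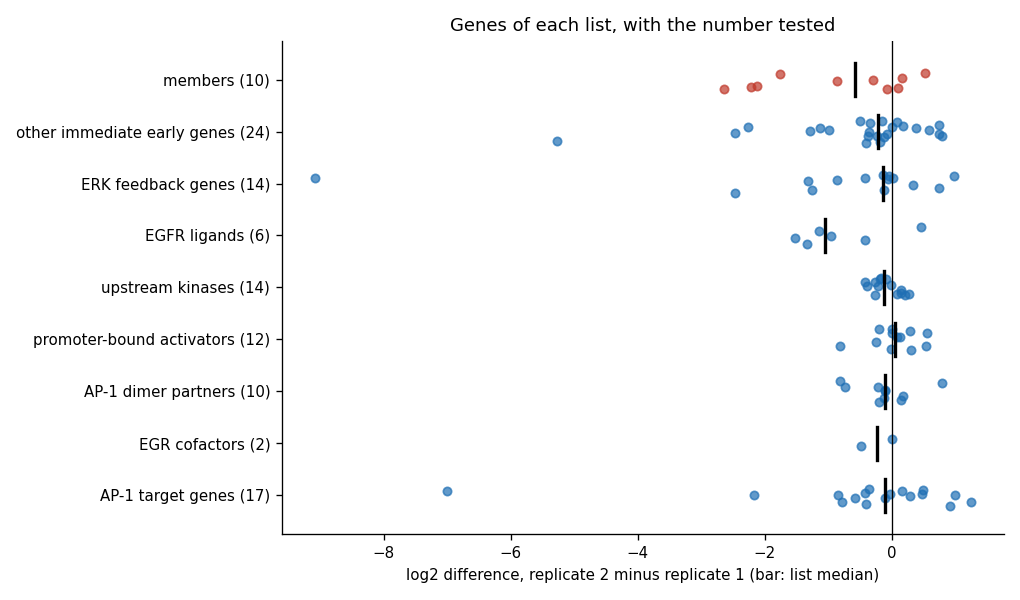
Log2 difference, replicate 2 minus replicate 1 (x axis), of each tested gene in the 10 members (red) and in 8 pathway lists (blue), with black bars at the medians and the number of tested genes after each name; points are spread vertically for clarity. The medians are −0.58 for the members and −1.05 for the EGFR ligands, whereas the upstream kinases lie within 0.5 of 0.

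The genes most like FOS, JUN and EGR1 across the 4 libraries were found by the Euclidean distance between log2 CPM centred on each gene's mean, among 11287 other tested genes with a mean of at least 5 CPM. FOS and EGR1 were each other's nearest gene, at a distance of 0.43. Next to FOS came BIK, an apoptosis-promoting gene, at 0.46 and CLIP4 at 0.50, and next to EGR1 came KLF4 at 0.44 and CDK6, a kinase of the G1 phase, at 0.50. Within replicate 1 the vector difference was 0.31 for BIK and CLIP4, 0.32 for KLF4 and 0.27 for CDK6, on the log2 scale, below the values of 0.96 and 0.91 for FOS and EGR1. JUN was nearest to CHAF1B at 0.014, UAP1 at 0.017 and HAT1 at 0.019, which had 31.3 to 36.7, 49.3 to 57.0 and 81.0 to 92.8 CPM. All 3 had their highest value in YTHDF1 replicate 1, as JUN had. The 4 libraries share 2 numbers, so these distances describe the split by number together with the vectors.

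Sequence features of the transcripts were counted, since the AU-rich pentamer ATTTA is known from short-lived mRNAs. The letters GGACT are a frequent form of the m6A consensus. Both were counted over the whole longest protein-coding transcript, coding sequence included, and not in the 3′ untranslated region alone. FOS held this pentamer 5 times in 2158 bases, or 2.32 per kb, the highest of the 10, against a median of 0.937 per kb over 19669 protein-coding genes. EGR1 held it 2 times in 3138 bases, or 0.637 per kb. Of the 10 genes, 4 were above the median for this pentamer. The transcripts of EGR1 and FOSL1 held no GGACT, and FOS had 3, or 1.39 per kb, against a median of 0.927. JUN had 5, at 1.41 per kb the highest of the 10, and 5 of the 10 genes were above the median. FOS and EGR1, which were alike in their levels across libraries, thus lay on opposite sides of both medians. Neither methylation nor stability of these transcripts was analysed here.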

How the data were processed

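The table that the authors deposited holds raw read counts of 46427 genes in 4 libraries, with no normalization. A stranded mRNA kit was used. The submitters' processing notes name Trimmomatic, HISAT2 and GRCh38, while the counting tool and its strand setting are not given in the sources used here. Total counts of 57398137 to 60864942 limit the precision, and intervals hold counting error alone, as no molecular identifiers tell molecules from PCR copies.

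The tools were R 4.3.3, edgeR 4.0.16 (filterByExpr, TMM, quasi-likelihood test, Benjamini-Hochberg adjustment over 17781 genes), limma 3.58.1 and DESeq2 1.42.0. Differences of log2 CPM used a prior count of 0.5. A gene was called at a log2 size of at least 0.5 and p under 0.05. The fits compared YTHDF1 with Control, and libraries numbered 2 with those numbered 1, each without the other term. The procedure was also run on simulated data, whose outcome is not reported here and is not used as support.

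The genes and lists were chosen with earlier results of these data known, and the lists were written from general knowledge. Named were the 10 genes, YTHDF1, the 4 genes of highest mean CPM in each pathway list, any listed gene called between the vectors, and the 3 genes nearest to FOS, JUN and EGR1, and a few genes that this rule names are not reported here. Cell type markers were summed and not named by this rule. Promoters came from RefSeq (GRCh38.p14), and motifs were searched on both strands. Alternatives were DESeq2 size factors, DESeq2's Wald test, limma-voom, no filter, a minimum of 10 counts in all libraries, library sizes without YTHDF1, the replicate number or the vector as a further term, a prior count of 2, no TMM, a log2 threshold of 1, and each library left out in turn. Plots were made in Python 3.11.15 (matplotlib 3.10.9).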

Additional observations from a re-analysis of the deposited data

How the results depend on the processing

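With the replicate number as a block, the count of members called between the vectors at an unadjusted p was 2, FOS at 0.65 (SE 0.16, adjusted p = 0.729) and EGR1 at 0.51 (SE 0.15, adjusted p = 0.999, by edgeR's quasi-likelihood test), against 0 without it, and 1.08% of all tested genes were called. At an adjusted p it stayed at 0, where 0.045% of all genes were called, and the block changed no other call of members or lists. Over 11 settings the adjusted p ran from 0.729 to 1.00 for FOS and from 0.999 to 1.00 for EGR1. The numbers have no stated meaning and only 2 pairs exist, so the main fits did not pair the libraries by them, although same-numbered libraries deviated together (r = 0.875 across genes). The differences within each replicate number did set same-numbered libraries side by side.

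Of the members' vector values, limma-voom turned the direction of FOSB, to −0.025, with 0.49 for FOS, 0.47 for EGR1 and 0.054 for EGR2, and no other alternative without a library left out turned one. With each library left out in turn, the vector log2 fold change ran from −1.34 to 2.26 for FOS, −1.46 to 1.38 for FOSB, −0.18 to 0.39 for FOSL1, −0.15 to 0.054 for FOSL2, −0.013 to 0.18 for JUN, −0.40 to 0.59 for JUNB, −0.071 to 0.26 for JUND, −1.05 to 1.84 for EGR1, −1.15 to 1.13 for EGR2 and 0.031 to 0.15 for EGR3. A group then holds 1 library, which is assumed to vary like the others, and the difference between the numbers enters the value. Between the numbers, 5 to 6 members were called with a library left out, JUN ran from −0.18 to 0.034 (adjusted p 0.00773 to 0.684) and FOSL2 from 0.13 to 0.20 (adjusted p 0.00858 to 0.104), and 4 members were called at a log2 size of 1. The genes of the 8 lists called between the numbers at an adjusted p were 33, and 31 by DESeq2's Wald test. By edgeR's quasi-likelihood test 26.2% of all tested genes were called.

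Depth limits the counting intervals, and the widest was that of EGR2 within replicate 2, from 105 and 92 counts. For FOS, FOSB, EGR1 and EGR2 the SE between the vectors was 0.94 to 1.30 without the block and 0.13 to 0.20 with it. The SE with the block draws on other genes and does not measure the gap between the 2 numbers, which was 0.87 for FOS and for EGR1.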
